A study of Mus musculus with 29 samples.

Results

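The nuclear genes of the mitochondrial respiratory chain were followed in the blood of irradiated and sham-treated mice. Members were all gene symbols beginning with Nduf, Uqcr, Atp5 or Cox4 to Cox8, together with Sdha, Sdhb, Sdhc and Sdhd, that had no -ps in the symbol and a mean of at least 10 normalised counts over the 29 libraries. Of 111 candidate symbols, 14 carried -ps and 10 fell below that mean, which left 87 members among the 50384 symbols of the table. Complex I held 37 members, its assembly factors Ndufaf1 to Ndufaf8 made up 8, complex II held 4, complex III 8, complex IV 13 and complex V 17. Ndufa4, named as a complex I gene, was placed with complex IV, where its protein is now assigned. The members with the lowest means inside the limit were Ndufaf6 at 34.6 and Ndufaf8 at 57.2, and the highest means outside it were Ndufa11b at 0.597 and Cox7b2 at 0.555.

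Whole blood of 29 male mice with the genotype label LJ was profiled by total RNA sequencing at day 120, with 1 library per animal. The 10 sham-irradiated animals (0 Gy) were compared with 19 animals given 11.35 Gy to the upper body. The labels divide the irradiated animals by outcome into Live (n = 10) and Die (n = 9), and all sham animals also carry the label Live. Samples came from the cheek or the tail vein, globin and ribosomal RNA were removed, and no batch is named in the labels. The strain behind the label LJ is not spelled out.

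The respiratory chain sits in the inner mitochondrial membrane. Complexes I and II pass electrons from NADH and succinate to ubiquinone, complex III hands them to cytochrome c, and complex IV gives them to oxygen, while complex V uses the resulting proton gradient to make ATP. Nearly all subunits are nuclear genes, and the mitochondrial genome encodes a small core of complexes I, III, IV and V. In blood, leukocytes, platelets and reticulocytes carry mitochondria, and mature erythrocytes do not.

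Defining blood markers fitted the tissue label, with Ptprc, Cd79a, Cd3e, S100a8, Csf1r, Pf4 and Alas2 all present, while the lung genes Sftpc and Scgb1a1 were listed at 0 in all 29 libraries and the muscle gene Ckm had a mean of 8.03. Another gene listed as a muscle marker, Actn2, went against this with a mean of 203 and no library at 0, with means of 205, 209 and 195 in the sham, Live and Die animals. Of the 6 lung and muscle markers listed, 3 reached a mean of at least 1, so either Sftpa1 or Myh6 did so as well. Totals ran from 19.6 M to 55.7 M normalised counts per library, which are scaled values and not read depths. A large share of each total came from the 7S RNAs, short noncoding transcripts of RNA polymerase III, with 17.9% ± 6.57, 27.4% ± 9.34 and 14.2% ± 10.8 (SD, n = 10, 10 and 9) in the sham, Live and Die animals. Sham replicate 1, Die replicate 2 and Die replicate 14 stood apart by the number of genes listed at 0 among those with a mean of at least 50. They had 828, 754 and 506 such genes, against 13 to 220 in the other libraries, and they also held 8, 3 and 3 members at 0, in the same order.

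Levels were compared between genes per kilobase of the longest principal transcript of each gene, so the ranks depend on that choice of length. The median member stood at 469 normalised counts per kb. Complex IV had the highest median, 1879 per kb, followed by complex V with 1013, complex III with 550.1, complex II with 389, complex I with 313 and the assembly factors with 60.6. Atp5b, the catalytic beta subunit of ATP synthase, was the highest member at 8123 per kb and alone supplied 19.7% of the summed normalised counts of all members. Uqcrh, the hinge protein of complex III, reached 6620 per kb, and Cox6c, a small membrane subunit of cytochrome c oxidase, reached 5994. Within complex I the range ran from Ndufb2 at 41.0 to Ndufb9 at 1872 per kb, both accessory subunits of the membrane arm. Within complex II it ran from the membrane anchor Sdhc at 77.2 to the flavoprotein Sdha at 580 per kb. Uqcrq, a small complex III subunit, was lowest there with 140.1 per kb, as were Cox6b2 in complex IV with 264 and Atp5g1 in complex V with 62.9. By mean value Atp5g1 and Ndufb2 were not the lowest of their complexes. Atp5g1 had 297 normalised counts against 66.5 for Atp5g2, and Ndufb2 had 179 against 90.7 for Ndufc1. Among assembly factors Ndufaf6 had 32.0 and Ndufaf2 112 per kb.

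Several complex IV subunits have tissue isoforms. The widely used forms Cox4i1, Cox6a1, Cox6b1, Cox7a2 and Cox8a were members, with means in the Live animals from 808 normalised counts for Cox7a2 to 2839 for Cox4i1. The alternative forms Cox4i2 and Cox8b were listed at 0 throughout, and Cox6a2, Cox7a1, Cox8c and Ndufa4l2 had means of 0.417, 0.526, 0.458 and 0.114. Cox6b2, described as the testis form, was measured in blood with 152 ± 162, 214 ± 118 and 91.5 ± 88.2 normalised counts (SD, n = 10, 10 and 9) in the sham, Live and Die animals. The symbol Ndufb1-ps was left out by its -ps ending, although its mean of 1246 was exceeded by only 1 complex I member, Ndufb9.

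**Figure D1:**
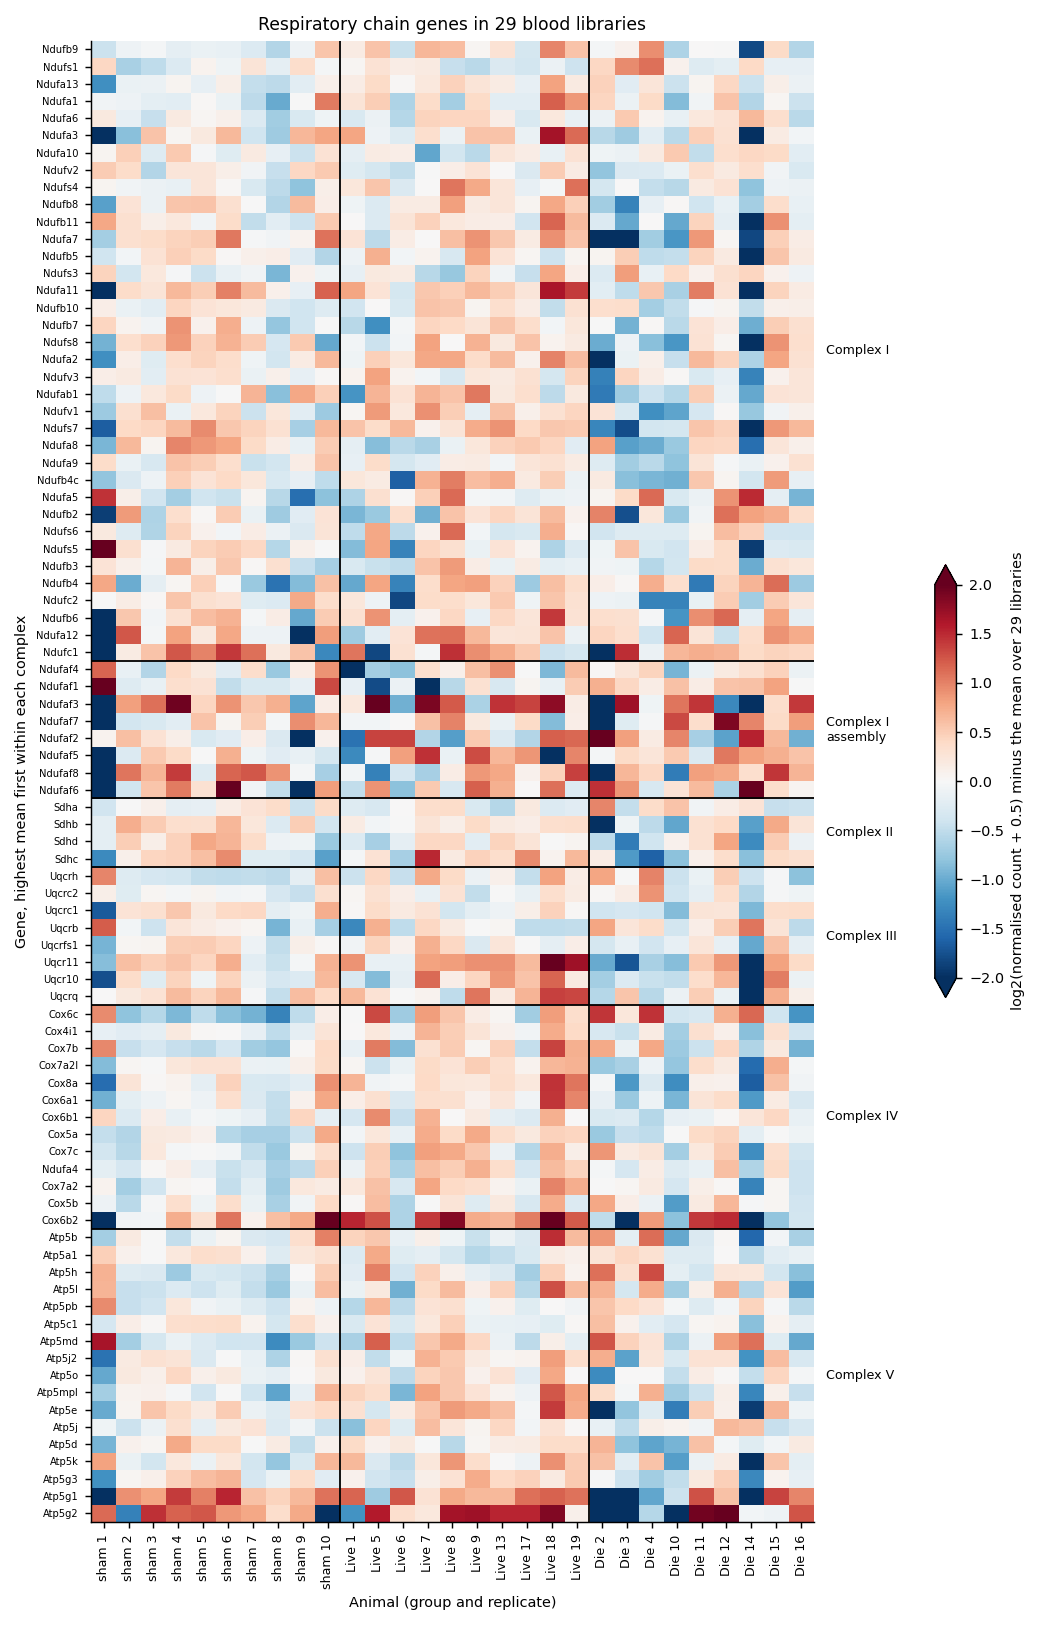
Heat map of 86 of the 87 members (vertical, grouped by complex, highest mean first) in the 29 animals (horizontal, grouped as sham, Live and Die). Colour gives log2(normalised count + 0.5) minus the gene's mean over 29 libraries, and scattered deep blue cells in sham 1, Die 2 and Die 14 mark the members at or near 0.

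Spread between animals of 1 group differed widely among members. The within-group SD on the log2 scale was lowest for Atp5a1 (0.312), the alpha subunit of ATP synthase, its gamma subunit Atp5c1 (0.313), Uqcrc2 (0.315), a core protein of complex III, Cox4i1 (0.326) and Ndufa13 (0.338). It was highest for Ndufaf3 (2.33), Cox6b2 (2.32), Atp5g2 (2.22), Ndufa11 (1.92) and Ndufc1 (1.90). Of the 87 members, 74 were above 0 in every library, and 9 of the 13 with a 0 belonged to the 10 members with means between 10 and 100. All 44 members with means of at least 400 were above 0 everywhere. Members made up 0.301% ± 0.0397, 0.276% ± 0.0452 and 0.304% ± 0.0440 (SD, n = 10, 10 and 9) of the totals of sham, Live and Die animals. With 7S RNA left out of the total these shares were 0.368% ± 0.0454, 0.380% ± 0.0325 and 0.359% ± 0.0659, so the order of the groups turned.

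Near-identical copies limit what can be said of some members. A BLAST search of transcripts found a copy with at least 95% identity over at least 50% of the member for 12 of 87 members, and for 4 of these a copy had a mean of at least 10. How reads were divided between such copies is not stated in the labels. The c subunit gene Atp5g2 had a mean of 66.5, while its copy Gm10175, identical over 88% of the transcript, had 309. The difference between Die and Live was -2.43 (log2) for Atp5g2 alone and -1.23 for the sum of both, so the level of Atp5g2 is uncertain. The whole Ndufb4c transcript matches Ndufb4 at 100% identity, with means of 201 and 149.7. Atp5l matches Gm10221 over 57% of its transcript, with means of 2805 and 563, and the copy of Uqcrb, Gm2962, had a mean of 14.8 beside 488.

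Promoters of members often held the words bound by the factors best known for these genes, NRF1, GABPA (an ETS factor) and YY1. RefSeq promoters of GRCm38.p6, from 250 bases before to 50 bases after the start, were found for 73 of 87 members. The NRF1 word (GCGCA, any base, GCGC) was present on either strand in 24.7% of them, against 6.60% of 17492 protein-coding genes. The GABPA word CCGGAAG was present in 24.7% against 11.9%, the YY1 word AANATGGC in 23.3% against 6.69%, and at least 1 of these words in 63.0% against 22.2%. The median first base lay 52.5 bases before the start for NRF1, 16 before it for GABPA, and 20.5 after it for YY1. The promoters of 4 members are shown because they hold the words in members with an unadjusted p under 0.01 between Die and Live, a choice made after the values were seen. Uqcr11, which also holds a GABPA word and meets that limit, is not shown, since that word is already printed in the other promoters. They are Atp5e at chr2:174464052-174464351, Cox8a at chr19:7217567-7217866, Cox6a1 at chr5:115348909-115349208 and Ndufs4 at chr13:114388045-114388344, all on the minus strand and printed 5′ to 3′ from RefSeq. Capitals mark the words: CTTCCGG, the reverse complement of the GABPA word, in Atp5e, Cox8a and Cox6a1, the NRF1 word in Cox6a1 and the YY1 word in Ndufs4.
Atp5e: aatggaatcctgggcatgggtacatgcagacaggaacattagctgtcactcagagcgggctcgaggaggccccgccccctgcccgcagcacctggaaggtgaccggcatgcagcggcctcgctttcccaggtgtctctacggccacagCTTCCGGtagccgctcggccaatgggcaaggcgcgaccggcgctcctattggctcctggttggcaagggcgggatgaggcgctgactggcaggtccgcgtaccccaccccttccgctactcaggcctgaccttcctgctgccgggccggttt
Cox8a: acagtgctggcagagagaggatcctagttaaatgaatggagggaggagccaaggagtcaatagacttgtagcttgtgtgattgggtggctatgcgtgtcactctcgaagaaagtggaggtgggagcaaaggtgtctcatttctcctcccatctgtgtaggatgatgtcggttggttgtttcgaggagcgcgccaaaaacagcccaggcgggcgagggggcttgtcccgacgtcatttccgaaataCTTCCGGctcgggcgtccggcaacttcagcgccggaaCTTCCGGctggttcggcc
Cox6a1: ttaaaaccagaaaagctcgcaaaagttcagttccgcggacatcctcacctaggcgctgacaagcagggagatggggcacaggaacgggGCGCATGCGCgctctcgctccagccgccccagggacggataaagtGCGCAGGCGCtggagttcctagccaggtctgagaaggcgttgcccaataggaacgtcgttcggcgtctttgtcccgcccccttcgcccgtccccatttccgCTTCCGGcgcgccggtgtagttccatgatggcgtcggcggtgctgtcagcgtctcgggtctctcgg
Ndufs4: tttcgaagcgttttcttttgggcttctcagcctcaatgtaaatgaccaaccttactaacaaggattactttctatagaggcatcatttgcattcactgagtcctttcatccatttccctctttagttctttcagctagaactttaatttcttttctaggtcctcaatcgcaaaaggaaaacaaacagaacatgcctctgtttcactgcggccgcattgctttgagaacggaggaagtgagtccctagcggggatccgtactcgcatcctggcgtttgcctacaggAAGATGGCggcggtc

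A match of letters describes the sequence and does not show that a factor binds there. Members with the GABPA word had a median difference between Die and Live of -0.23 (log2, 18 members) and those without it -0.30 (55 members). The same medians were -0.18 and -0.31 with and without the NRF1 word, and -0.41 (17 members) and -0.24 (56 members) with and without the YY1 word.

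After irradiation with both outcomes combined, no member passed the test against sham. Of 87 members 0 had an adjusted p under 0.05 in limma with Benjamini-Hochberg adjustment over 24310 genes, where 0.0165% of all genes (4 genes) did. The lowest adjusted p among members was 0.376. At an unadjusted p under 0.05, 2 members were higher (background 3.45% of genes) and 1 was lower (background 3.95%). The median log2 difference was 0.08 over members and 0.02 over all genes, and 51 of 87 members (background 52.2% of genes) lay above 0. The sign of this median was not stable. It came out at -0.05 without sham replicate 1, at 0.02 without sham replicate 1, Die replicate 2 and Die replicate 14 together, and at -0.04 after scaling to equal totals without 7S RNA, in which the median of all genes was -0.08. With 7S share as a covariate 42 members and with a weight for each library 43 lay above 0, with medians of -0.0037 and -0.0046. These values come from whole blood, in which fewer cells of a type and less RNA per cell cannot be told apart.

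Cox6c had the smallest p in that comparison. Its normalised counts had a lowest, median and highest value of 1488, 2348 and 7238 in sham, 2290, 4488 and 9387 in Live, and 1672, 4388 and 10240 in Die. Of 10 sham animals 9 lay below the median of the Live animals, but the ranges overlapped, and the highest sham value came from sham replicate 1. The log2 difference was 0.82 ± 0.27 (SE) for irradiated against sham (adjusted p = 0.376, limma), 0.80 ± 0.30 for Live against sham (adjusted p = 0.457) and 0.83 ± 0.31 for Die against sham (adjusted p = 0.522). The last 2 share the sham animals. Between Die and Live it was 0.03 ± 0.31 (adjusted p = 0.982). When limma estimated a weight for each library, Cox6c passed the test for irradiated against sham (log2 difference 0.76, adjusted p = 0.0404), in a fit that called 1.98% of all genes.

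Ndufa13, an accessory subunit of complex I also known as GRIM-19, had a lowest, median and highest value of 347, 735 and 882 in sham, 729, 932 and 1428 in Live and 601, 843 and 1114 in Die. The groups overlapped, with 5 of 10 sham animals below all Live animals. Its log2 difference for irradiated against sham was 0.38 ± 0.15 (adjusted p = 0.503, limma). Atp5a1 lay on the other side, at 4649 ± 654, 3822 ± 1199 and 4012 ± 882 (SD, n = 10, 10 and 9) in the sham, Live and Die animals, with a log2 difference of -0.28 ± 0.13 (adjusted p = 0.653, limma). Of 10 Live animals 9 were below the sham median, and the highest Live value was 6836, in Live replicate 5. The next smallest p-values belonged to Cox5a (0.32) and Ndufa4 (0.30) above 0 and to Ndufa8 (-0.51), Ndufs5 (-0.54) and Ndufa7 (-0.50) below it, none past an unadjusted p of 0.05.

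On the deposited scale Live animals lay above sham for most members, most evenly in complex IV, yet no member passed the test. The adjusted p was under 0.05 for 0 of 87 members in limma, against 0.0411% of all genes (10 genes), and the lowest was 0.317. The median log2 difference was 0.24 over members and 0.01 over all genes. Of 87 members, 68 (78.2%) lay above 0, as did 52% of all genes. These counts moved with the scaling: with 7S share as a covariate 45 of 87 lay above 0 with a median of 0.02, and with equal totals without 7S RNA 50 did with a median of 0.07, while the medians of all genes were -0.09 and -0.12. At an unadjusted p under 0.05, 8 members were higher (background 3.76%) and 2 were lower (background 3.93%). The higher members numbered 5 with 7S share as a covariate (background 4.09%), 14 with a weight for each library (background 6.62%) and 1 with equal totals without 7S RNA (background 1.85%).

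All 13 complex IV members were above 0 in Live against sham, 5 of them at an unadjusted p under 0.05, with a median log2 difference of 0.46. With 7S share as a covariate 12 of 13 stayed above 0 and the median fell to 0.19. With equal totals without 7S RNA 11 of 13 did and the median was 0.29, while the median of all genes moved to -0.12. The medians were 0.25 in complex V, 0.19 in complex III, 0.13 in complex I and -0.08 in complex II. Complex I turned to -0.04 both with the 7S covariate and with equal totals, and complex III to -0.10 with the 7S covariate, in which the median of all genes was -0.09. The assembly factors had a median of 0.63, which was 0.05 without sham replicate 1, Die replicate 2 and Die replicate 14.

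Among complex IV genes Cox5a, a nuclear subunit on the matrix side, had values of 684, 792 and 1838 (lowest, median, highest) in sham, 982, 1401 and 1843 in Live and 646, 1026 and 1483 in Die. All 10 Live animals were above the sham median, although the sham range reached as high. The log2 difference between Live and sham was 0.55 ± 0.19 (adjusted p = 0.329, limma). Cox7a2, the common isoform of subunit 7a, ran from 370 to 699 in sham with a median of 567, from 486 to 1199 in Live with a median of 779, and from 240 to 684 in Die with a median of 612. All 10 sham animals lay below the Live median, and the groups overlapped. Its log2 difference was 0.56 ± 0.20 (adjusted p = 0.353, limma), and in the fit with library weights it was 0.54 (adjusted p = 0.0441). In that fit Cox6c also passed the test against sham, at 0.88 (adjusted p = 0.0332), and 2.95% of all genes were called.

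Cox4i1, the main isoform of the largest nuclear subunit, had 2184 ± 335, 2839 ± 613 and 2095 ± 611 normalised counts (SD, n = 10, 10 and 9) in the sham, Live and Die animals, and its log2 difference between Live and sham was 0.36 ± 0.16 (adjusted p = 0.555, limma). In complex I, Ndufa13 differed by 0.50 ± 0.17 (adjusted p = 0.317) and Ndufs4, an accessory subunit whose loss in mice causes a Leigh-like disease, by 0.50 ± 0.20 (adjusted p = 0.481). The members lower in Live with the smallest p were Atp5a1 (-0.32 ± 0.15, adjusted p = 0.606), Ndufaf1 (-0.87 ± 0.43, adjusted p = 0.650), Ndufa8 (-0.43 ± 0.29, adjusted p = 0.824) and Ndufs5 (-0.49 ± 0.32, adjusted p = 0.806).

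**Figure D2:**
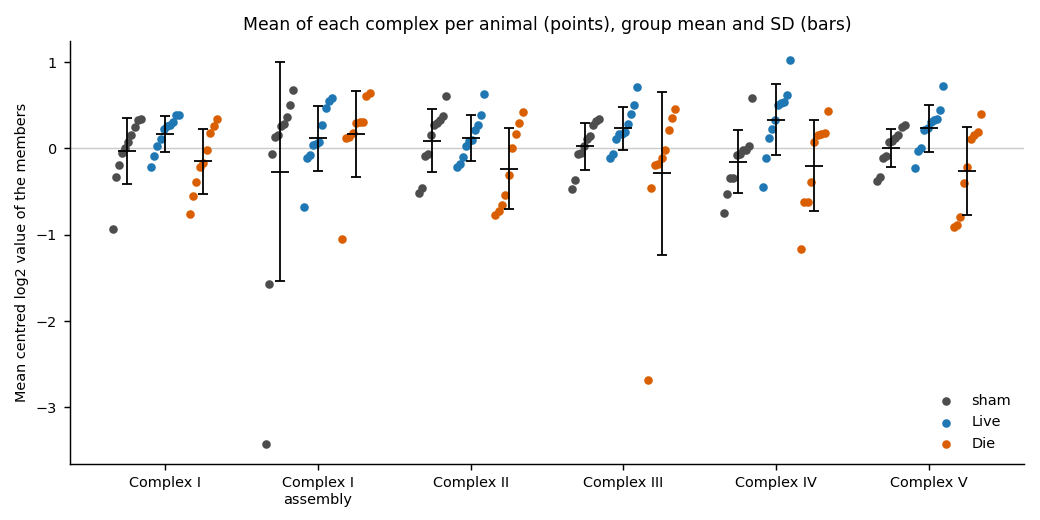
Mean of the centred log2 values of the members of each complex (vertical axis) in each animal (points, sorted by value within a group), with the group mean and SD as bars. Complex IV in Live animals lies from -0.44 to 1.02 around a mean of 0.33, and the lowest points are sham replicate 1 in the assembly factors and Die replicate 14 in complex III.

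Die animals differed little from sham over the members as a group. In limma 0 of 87 members, and 0% of all genes (0 genes), had an adjusted p under 0.05, and the lowest adjusted p among members was 0.471. At an unadjusted p under 0.05, 1 member was higher (background 4.13%) and 4 were lower (background 4.54%). The median log2 difference was -0.10 over members and 0.02 over all genes, with 51 of 87 members (background 48.5% of genes) below 0. By complex the medians were -0.15 in complex I, 0.41 in its assembly factors, -0.34 in complex II, -0.17 in complex III, 0.01 in complex IV and -0.17 in complex V. Without sham replicate 1, Die replicate 2 and Die replicate 14 complex I lay at -0.05, complex II at -0.26 and complex III at -0.07. The median over members was then -0.03. With equal totals without 7S RNA it was -0.18, while the median of all genes was -0.04.

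The 4 lower members were Ndufa7, Atp5e, Sdhb and Atp5g1. Without sham replicate 1, Die replicate 2 and Die replicate 14, Atp5e and Sdhb lay nearer 0 by more than 1.5 times, and Ndufa7 and Atp5g1 did not. Ndufa7, an accessory subunit of the matrix arm of complex I, ran from 204 to 696 with a median of 414 in sham and from 65.2 to 599 with a median of 202 in Die. Of 9 Die animals 5 lay below all sham animals and 2 lay above the sham median. The log2 difference was -1.05 ± 0.34 (adjusted p = 0.471, limma). Sdhb, the iron-sulfur subunit of succinate dehydrogenase, had 605 ± 154, 567 ± 57.1 and 448 ± 250 (SD, n = 10, 10 and 9) in the sham, Live and Die animals, a log2 difference of -0.72 ± 0.31 between Die and sham (adjusted p = 0.527), which was -0.28 without sham replicate 1, Die replicate 2 and Die replicate 14. Its partners in complex II were nearer 0 in the same comparison, with Sdha at 0.09 ± 0.18, Sdhc at -0.28 ± 0.32 and Sdhd at -0.40 ± 0.25. Besides Cox6c, the members above 0 with the smallest p were Ndufa5 (0.59), Atp5md (0.51) and Ndufa6 (0.29), none past an unadjusted p of 0.05.

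Between Die and Live animals most members were lower in Die, but none passed the test. In limma 0 of 87 members, and 0% of 24310 genes (0 genes), had an adjusted p under 0.05, with a lowest adjusted p of 0.348 among members. At an unadjusted p under 0.05, 24 of 87 members (27.6%) were lower, where the background was 5.32% of genes, and 2 members were higher against a background of 5.02%. Below 0 lay 66 of 87 members (75.9%), as did 49.6% of all genes. The median was -0.26 over members and 0.00 over all genes.

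Complex IV had the lowest median, -0.46, with 12 of 13 members below 0 and 7 at an unadjusted p under 0.05. Complex II followed with -0.45, complex V with -0.31, complex III with -0.29 and complex I with -0.24. The assembly factors lay at 0.22, with 6 of 8 above 0. Without sham replicate 1, Die replicate 2 and Die replicate 14 the complex II median was -0.12, nearest to 0 of complexes I to V, and complex IV still had the lowest at -0.36. With a weight for each library these medians were -0.10 and -0.30. The medians of complexes I to V kept their sign with quantile scaling, with equal totals without 7S RNA and with the 7S covariate, in which the complex I and II medians were both -0.02.

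**Figure D3:**
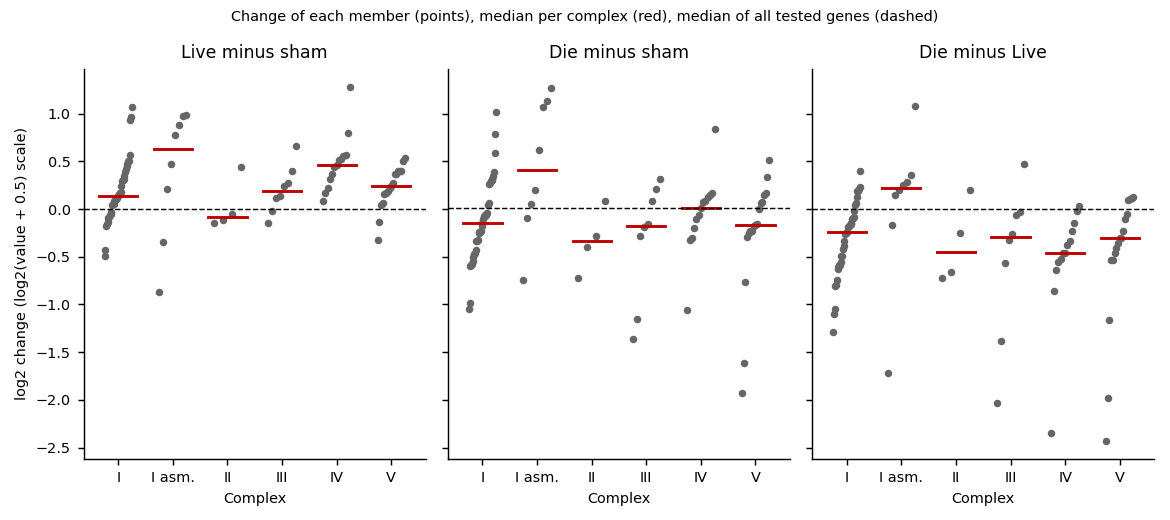
Log2 difference of each member on the log2(value + 0.5) scale (vertical axis; points) by complex, with panels for Live (left) and Die (middle) against sham and for Die against Live (right), and with the median of each complex in red and the median of all tested genes dashed. Complex IV sits above 0 in the left panel and, apart from Cox6c at 0.03, below 0 in the right panel.

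Atp5e, the small epsilon subunit in the central stalk of ATP synthase, had the smallest p between Die and Live. Its normalised counts had a lowest, median and highest value of 230, 546 and 685 in sham, 366, 694 and 1232 in Live and 65.4, 389 and 750 in Die. Of 9 Die animals 4 lay below all Live animals and 8 lay below the Live median. The log2 difference was -1.16 ± 0.33 between Die and Live (adjusted p = 0.348, limma) and -0.76 ± 0.33 between Die and sham (adjusted p = 0.527). The difference between Die and Live was -0.68 without sham replicate 1, Die replicate 2 and Die replicate 14, and -0.29 with the 7S covariate. Between Die and sham these values were -0.40 and -0.51.

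Ndufa7 differed by -1.10 ± 0.34 (adjusted p = 0.348, limma), with 228, 434 and 615 as the lowest, median and highest values in Live. Again 5 of 9 Die animals lay below all Live animals, and with the 7S covariate the difference was -0.19. Ndufv1, the flavin-binding core subunit that oxidises NADH, had values of 149, 254 and 373 in sham, 215, 316 and 464 in Live and 105, 199 and 297 in Die. All 9 Die animals lay below the Live median and 5 lay below all Live animals. The difference was -0.75 ± 0.23 (adjusted p = 0.348, limma), and -0.57 with the 7S covariate. Cox8a, the common isoform of a small complex IV subunit, had values of 415, 1141 and 2258 in sham, 1139, 1467 and 3257 in Live and 380, 1143 and 1803 in Die. Below all Live animals lay 4 of 9 Die animals. Its difference was -0.85 ± 0.27 (adjusted p = 0.348, limma), and -0.13 with the 7S covariate.

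**Figure D4:**
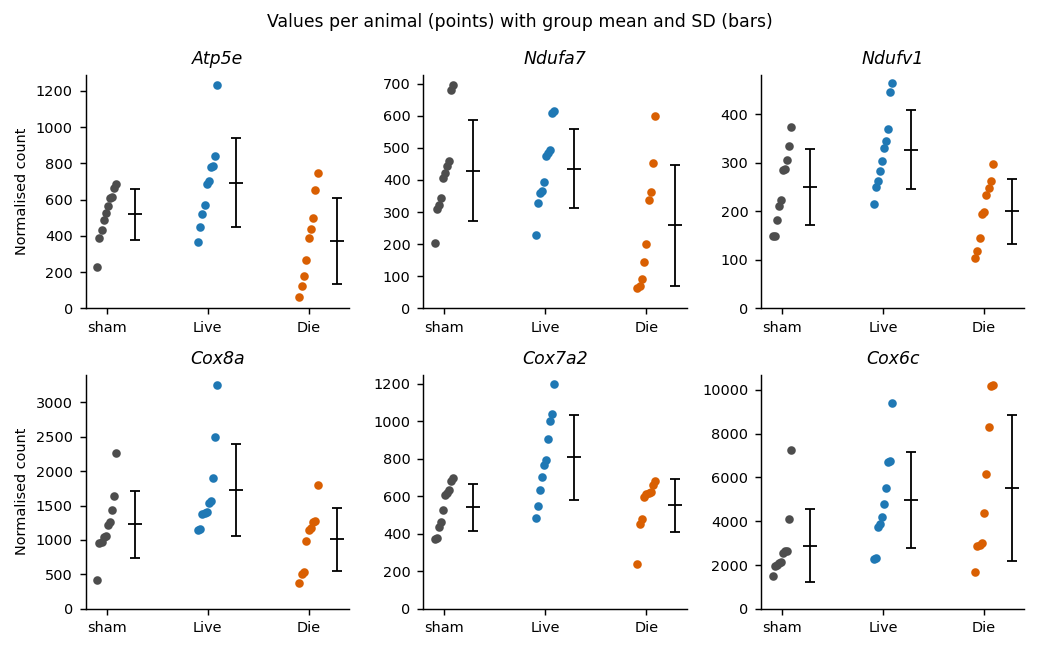
Normalised counts (vertical axes, linear from 0) of Atp5e, Ndufa7, Ndufv1, Cox8a, Cox7a2 and Cox6c in each animal (points, sorted by value within a group), with group mean and SD as bars. The groups overlap in every panel; Die animals reach the lowest values of Atp5e (65.4) and Ndufa7 (65.2), and sham animals the lowest of Cox6c (1488).

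Other core subunits varied in direction between Die and Live. Among complex I cores Ndufs7 lay at -1.29 ± 0.53 (adjusted p = 0.424, limma) and Ndufs8 at -0.59 ± 0.31 (adjusted p = 0.507), while Ndufv2 lay at -0.08 ± 0.18 and Ndufs3 at 0.21 ± 0.21. Ndufs1, the largest subunit of the electron-input module, was above 0 at 0.39 ± 0.19 (adjusted p = 0.472), from 775 ± 162 in Live to 1060 ± 409 in Die (SD, n = 10 and 9). With the 7S covariate Ndufs1 lay at 0.0037, Ndufs7 at -0.23, Ndufs8 at 0.02, Ndufv2 at 0.05 and Ndufs3 at 0.19. In complex II Sdhb lay at -0.66 ± 0.31 (adjusted p = 0.467), Sdhc at -0.72 ± 0.32 (adjusted p = 0.436), Sdhd at -0.25 ± 0.25 and Sdha at 0.20 ± 0.18. In complex III the core proteins Uqcrc1 and Uqcrc2 lay at -0.26 ± 0.23 and -0.03 ± 0.16, the Rieske protein Uqcrfs1 at -0.32 ± 0.21, and the small subunit Uqcr11 at -2.03 ± 0.72 (adjusted p = 0.374), which was listed at 0 in Die replicate 14. In complex IV Cox4i1 lay at -0.47 ± 0.16, Cox6a1 at -0.63 ± 0.22, both with an adjusted p of 0.371, Cox7a2 at -0.55 ± 0.20 (adjusted p = 0.383) and Cox7a2l, which joins complexes III and IV in supercomplexes, at -0.52 ± 0.22 (adjusted p = 0.424). With the 7S covariate Sdhb lay at -0.05, Sdhc at -0.24 and Uqcr11 at -0.51. In the same fit Cox4i1 lay at -0.23, Cox6a1 at -0.17, Cox7a2 at -0.43 and Cox7a2l at 0.07.

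The 3 genes of the ATP synthase c subunit encode the same mature protein. Atp5g1 had 337 ± 148, 338 ± 106 and 206 ± 197 (SD, n = 10, 10 and 9) in the sham, Live and Die animals, a difference of -1.98 ± 0.76 between Die and Live (adjusted p = 0.397, limma). Its lowest Die values were 5.06, 7.41 and 9.91, in replicates 14, 3 and 2, against 92.1 or more in the other Die animals. The difference was -1.01 without sham replicate 1, Die replicate 2 and Die replicate 14, and -0.04 with the 7S covariate. Atp5g3 had 350 ± 117, 379 ± 93.9 and 284 ± 95.8 in the same order of groups, a difference of -0.46 ± 0.24 (adjusted p = 0.512), and -0.01 with the 7S covariate. The catalytic Atp5b lay at -0.41 ± 0.27 and its partner Atp5a1 at 0.09 ± 0.15. Above 0 with the smallest p were Ndufaf1 (1.08 ± 0.44, adjusted p = 0.424), a factor that helps to build the membrane arm of complex I, Ndufs1, Uqcrb (0.47 ± 0.25, adjusted p = 0.528) and Ndufa10 (0.24 ± 0.18, adjusted p = 0.659). With the 7S covariate Ndufaf1 lay at 1.14, Uqcrb at 0.08 and Ndufa10 at 0.21. Ndufaf1 ran from 4.77 to 129.7 in Live and from 90.6 to 161 in Die.

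Several other measures moved with the difference between Die and Live. The 5 Die animals with the lowest 7S share, replicates 2, 3, 4, 10 and 14 (3.02% to 8.72%), held the 5 lowest Die values of Atp5e, 65.4 to 389, against 436 to 749.7 in the other 4. With 7S share as a covariate, the median difference of members was -0.05 while that of all genes was 0.12, and 1 member was lower at an unadjusted p under 0.05, against 1.15% of all genes. Without sham replicate 1, Die replicate 2 and Die replicate 14 the median was -0.21 and 13 members were lower, against 3.35% of all genes. Of the 24 members lower with all libraries, 13 then lay nearer 0 by more than 1.5 times, among them Uqcr11 (-0.95), Cox6b2 (-1.55), Ndufa7 (-0.71), Ndufs7 (-0.49), Cox7a2l (-0.28) and Sdhb (-0.18). With library weights 11 members were lower (background 2.92%), and with equal totals without 7S RNA 13 were (background 3.19%). Leaving out Die replicate 14 alone left 12 members lower, and leaving out Live replicate 6 raised the number of members higher in Live than in sham from 8 to 14. No share of all genes was worked out for fits without a single library, so these shifts cannot be set against a background.

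Platelet markers moved the same way. All 6 (Pf4, Ppbp, Itga2b, Gp9, Gp1bb and Treml1) were lower in Die than in Live, 4 at an unadjusted p under 0.05 (background 5.32% of genes) and 0 past the test. Their median was -0.79, and for Live against sham it was 0.67. Their summed level ran from 37263 to 133765 normalised counts in sham, from 58029 to 117497 in Live and from 35915 to 84896 in Die, and none was at 0. Of 6 B cell markers 4 were lower in Die, 2 at an unadjusted p under 0.05, with sums of 11703 to 18493 in Live and 10661 to 20088 in Die. Of 6 classical monocyte markers 5 were higher in Die than in Live, and all 6 were lower in Live than in sham, 2 past the test, with sums of 36464 to 77216 in sham, 16770 to 42904 in Live and 23483 to 50841 in Die. Of 6 erythroid markers 4 were lower in Die than in Live and 5 were higher in Live than in sham, none at an unadjusted p under 0.05, with medians of -0.34 and 0.35. Their summed level ran from 0.923 M to 3.49 M normalised counts in sham, from 1.01 M to 4.18 M in Live and from 0.690 M to 2.80 M in Die, after the removal of globin RNA, and none was at 0. Other marker lists did not all go the same way. Higher in Die than in Live were 5 of 6 T cell, 4 of 8 neutrophil, 1 of 4 NK and 4 of 6 non-classical monocyte markers. All 6 non-classical monocyte markers were lower in Live than in sham, 1 past the test (background 0.0411% of genes). The part of these cell types in the member differences was not tested.

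Transcript length moved with the differences between Die and Live and between Live and sham, in members and in all genes alike. The set of all genes here includes the members with a mean of at least 50. In Die minus Live the 19 members with principal transcripts of up to 600 bases had a median of -0.56, and the 151 genes of that length with a mean of at least 50 had -0.50. For longer transcripts up to 1000 bases the medians were -0.23 for 29 members and -0.28 for 477 genes. Above that and up to 2000 bases they were -0.26 for 29 members and -0.19 for 2043 genes. Over 2000 bases they were 0.15 for 10 members and -0.01 for 7809 genes. For Live against sham, the shortest class had 0.39 in members and 0.38 in all genes, and the longest 0.02 and 0.00. For Die against sham there was no such order: from the shortest class to the longest the medians were -0.16, -0.04, -0.18 and -0.02 in members, and -0.10, -0.10, -0.10 and -0.01 in all genes. Members of complex IV had the shortest median transcript, 645 bases, against 875 over all members. The part of transcript length in the member differences was not tested.

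**Figure D5:**
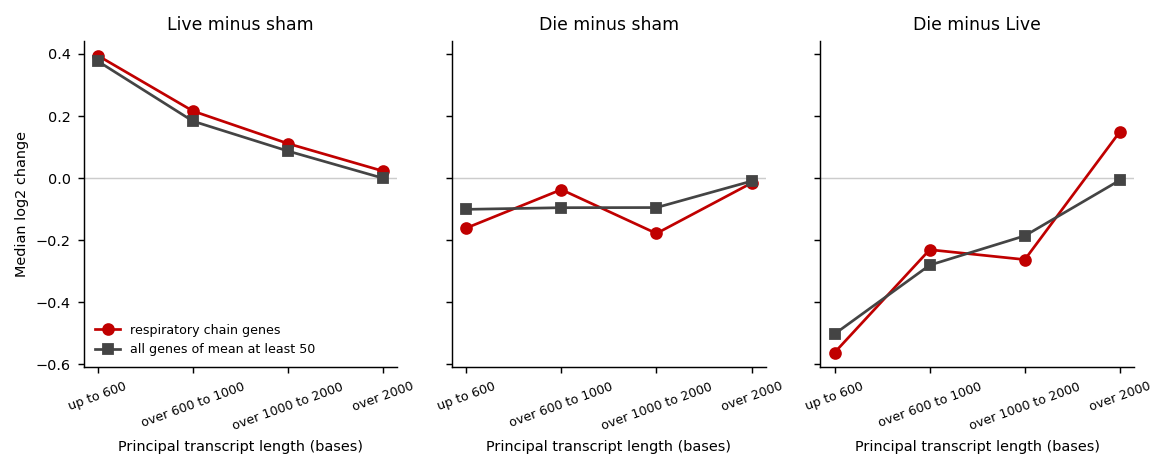
Median log2 difference (vertical axis) by length of the principal transcript in bases (horizontal axis) for the members (red) and for all genes with a mean of at least 50 (grey), with panels for Live (left) and Die (middle) against sham and for Die against Live (right). In the right panel the shortest class is the lowest on both lines (-0.56 and -0.50), and the longest class holds only 10 members.

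The mitochondrial genome's own respiratory chain genes showed another order of groups in their summed level. It was 116157 ± 40862, 145350 ± 24077 and 176893 ± 67678 normalised counts (SD, n = 10, 10 and 9) in sham, Live and Die animals, and the ranges overlapped. Of 13 genes 11 lay above 0 in each of the 4 comparisons (background 50.3% to 52.2% of genes) and 0 passed the test in limma. The median was 0.52 for irradiated against sham, where 9 were higher at an unadjusted p under 0.05 (background 3.45% of genes). It was 0.46 for Live against sham with 3 (background 3.76%) and 0.58 for Die against sham with 10 (background 4.13%). Between Die and Live it was 0.17, with 1 higher (background 5.02%) and 1 lower (background 5.32%). The medians of all genes were 0.02, 0.01, 0.02 and 0.00 in the same order. mt-Atp6, a membrane subunit of ATP synthase, had the smallest p, at 2.27 ± 0.73 for irradiated against sham (adjusted p = 0.365) and 2.70 ± 0.85 for Die against sham (adjusted p = 0.471). mt-Cytb, the only mitochondrially encoded part of complex III, lay at 0.50 ± 0.22 for Live against sham (adjusted p = 0.572), and mt-Co3 at 0.58 ± 0.23 (adjusted p = 0.511). Between Die and Live, mt-Nd4l lay at -1.98 ± 0.91 (adjusted p = 0.454) and mt-Nd6 at 1.42 ± 0.66 (adjusted p = 0.458).

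Other genes of the pathway gave 0 calls in limma in all 4 comparisons. Between Die and Live, the median was -0.47 over 32 assembly factors outside the 87 members, with 24 below 0. At an unadjusted p under 0.05, 3 were lower (background 5.32% of genes) and 1 was higher (background 5.02%). Uqcc3, a complex III assembly factor, lay at -1.42 ± 0.55 (adjusted p = 0.404) and Cox11, a copper-delivery protein for complex IV, at -2.03 ± 0.80 (adjusted p = 0.410). The 16 genes of electron carriers and ubiquinone synthesis had a median of -0.24, with 11 below 0 and 3 lower at an unadjusted p under 0.05. Coq8b, a kinase-like protein of ubiquinone synthesis, lay at -1.80 ± 0.65 and Etfb, a subunit of the electron transfer flavoprotein, at -0.75 ± 0.28, both with an adjusted p of 0.383. The 16 genes of the citric acid cycle and pyruvate dehydrogenase had a median of -0.01, 8 on each side of 0, with Suclg2 at 0.99 ± 0.33 (adjusted p = 0.371) and Fh1 at 0.52 ± 0.29 (adjusted p = 0.529). Of 8 carrier and uncoupling genes 7 could be tested, with a median of -0.22 and 6 below 0, among them the outer membrane channels Vdac1 (-0.49 ± 0.18, adjusted p = 0.385) and Vdac3 (-0.34 ± 0.16, adjusted p = 0.458). The 12 regulators of mitochondrial genes had a median of 0.08, 6 on each side. Of these Esrra, a nuclear receptor that activates respiratory genes, lay at -2.90 ± 0.92 (adjusted p = 0.348), with 2 Die libraries at 0, and Gabpa at 0.51 ± 0.25 (adjusted p = 0.483).

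The same lists had 0 calls against sham too. The medians for Live against sham and for Die against sham were 0.06 and -0.03 in the other assembly factors, 0.07 and -0.20 in the electron carriers, 0.01 and -0.03 in the citric acid cycle, 0.01 and -0.02 in the regulators, and 0.00 and -0.22 in the carriers. For irradiated against sham they were -0.07, -0.08, -0.05, -0.13 and -0.01 in the same order. Among the genes with the smallest p of their list were Nubpl (1.55 ± 0.57, adjusted p = 0.427), an iron-sulfur assembly factor of complex I, in Live against sham, and Coq8b (adjusted p = 0.471) and Cs, citrate synthase (-0.43 ± 0.18, adjusted p = 0.526), in Die against sham.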

How the data were processed

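Blood RNA of 29 animals was measured, 10 sham, 10 Live and 9 Die. For each gene symbol the deposited table gives a signal: estimated counts that the authors normalised by library, and the median ratio to the geometric mean was 1.02 in all libraries. Tools in the submitters' processing notes are DESeq2, sleuth, kallisto 0.44.0 and bcl2fastq 2.19, with build GRCm38, and which tool did which step, on which annotation, is not given in the sources used here. Read depth is not part of these values, so no counting interval is given.

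Members and gene lists were chosen with earlier results of these data known. All 24310 genes with a mean of at least 1 were tested with limma 3.58.1 (R 4.3.3), with a trend, on log2(value + 0.5). All differences are on that scale. The added 0.5 shrinks ratios between low values, but a library at 0 can enlarge the difference of a low gene. Ndufaf6, listed at 0 in sham replicates 1 and 9, lay at 0.99 for Live against sham. Without sham replicate 1, Die replicate 2 and Die replicate 14 that difference was 0.45. The fit held 3 group means and 4 contrasts, two-sided, with Benjamini-Hochberg adjustment and a threshold of 0.05. Irradiated is the equally weighted mean of Live and Die. SE is limma's, SD the spread between animals, and an adjusted p without a tool named beside it is limma's. The step was tested on simulated data. No test was made on a list as a whole.

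Named genes were the Sdh genes, core catalytic subunits, isoform families, the 4 members per contrast and direction with the smallest p, the extremes of level and spread per complex, and up to 2 genes per pathway list and contrast with the smallest p. The values of 1 member are not reported here, though it stays in all counts and medians. Ndufs4 and the promoters shown were chosen after their values were seen.

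Transcripts, lengths (of the longest principal transcript) and coordinates are from GENCODE M21, with copies found by blastn 2.17.0, and promoters from RefSeq GRCm38.p6. Python 3.11.15, numpy 2.4.6, pandas 2.3.3 and matplotlib 3.10.9 were used. Alternatives were a pseudocount of 1, no filter, a mean of at least 50, equal totals without 7S RNA, quantile scaling, library weights, 7S share as a covariate, a replicate block, leaving out sham 1, Die 2 and Die 14 together and, chosen after seeing the data, leaving out each library in turn.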

Additional observations from a re-analysis of the deposited data

Results flagged for a closer look

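Samples far from the rest of their group were looked for in 144 group values (3 groups of 48 measures), and 18 were found, where chance gives about 1 in 20. Sham replicate 1 accounts for 10 of them. In that library the mean centred log2 value was -0.93 in complex I (next -0.33) and -0.95 over all members (next -0.34). Atp5g1 had 7.04 (next 258) and Cox7a2l 973 (next 1626), both the lowest of the group, while Atp5md had 2190 (next 639.8), Cox6c 7238 (next 4111), Ndufa5 483 (next 192), Ndufaf1 398 (next 229), Ndufs5 676 (next 217) and Uqcrb 1053 (next 536), all the highest. Sham replicate 10 was highest for Atp5b with 28425 (next 17836), Cox5a with 1838 (next 1249) and Cox6b2 with 593 (next 174). Among Live animals the highest value stood apart for Atp5a1 in replicate 5 with 6836 (next 4526), for Atp5b in replicate 18 with 39159 (next 21921) and for Ndufa5 in replicate 8 with 389 (next 246). Among Die animals the mean of the complex I assembly factors was -1.05 in replicate 2 (next 0.12), and that of complex III was -2.68 in replicate 14 (next -0.46).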

How the results depend on the processing

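No member passed the test in limma in any comparison under a pseudocount of 1, no filter, a mean of at least 50, equal totals, quantile scaling, the 7S covariate, the replicate block, without the 3 sparse libraries or without any 1 library. Library weights called 1 member for irradiated against sham and 2 for Live against sham. Members lower in Die than in Live at an unadjusted p under 0.05, 24 as reported, numbered 1 with the 7S covariate, 11 with library weights, 13 with equal totals, 13 without the 3 sparse libraries and 12 to 28 with 1 library left out. Members higher in Live than in sham, 8 as reported, numbered 5 with the 7S covariate, 14 with library weights, 1 with equal totals and 6 to 14 with 1 library left out. The cause of these shifts was not tested, and no share of all genes was worked out for the fits with 1 library left out. With 1 library left out the median member difference ran from -0.33 to -0.20 for Die against Live, -0.16 to -0.02 for Die against sham, 0.17 to 0.27 for Live against sham and -0.05 to 0.10 for irradiated against sham, and members called stayed at 0. Same-numbered animals did not deviate together over all tested genes (10 pairs, correlations -0.08 to 0.01), a check that cannot show whether they were matched. The replicate block kept only numbers found in both arms, 10, 6 and 4 pairs for irradiated, Live and Die against sham. It called 0 members, with medians of 0.01, 0.29 and -0.33 in the same order, beside -0.04, 0.00 and -0.10 over all genes. Its Die animals were replicates 2, 3, 4 and 10, with 7S shares of 4.97% to 8.72%. For Die against sham 15 members in place of 4 were lower at an unadjusted p under 0.05, and no share of all genes was worked out. No paired analysis was possible for Die against Live because they share no replicate number. Among values of named members under the other alternatives, 277 kept their direction and their side of the threshold and 3 (Cox6c in 2 comparisons and Cox7a2, with library weights) passed it. No named member had passed the threshold in the reported fit, and the size of a difference did not enter this count. Between Die and Live, Ndufs1 went from 0.39 to 0.0037 and Cox8a from -0.85 to -0.13 with the 7S covariate, and both kept their direction.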
